A study of Mus musculus with 38 samples.

Results

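The proteasome is the protease that degrades proteins tagged with ubiquitin. The 46 genes described here encode its constitutive subunits and regulators in mouse macrophages. They were taken by symbol from the 11184 genes of an RNA-seq table: names starting with Psma to Psmg and a digit, leaving out Psmb8, Psmb9 and Psmb10, the subunits of the immunoproteasome. All 46 passed the minimum of 1 RPKM (reads per kilobase of gene, scaled to library size) in at least 4 libraries, as did 9942 genes in all. One of them, Psmc3ip, matches by its name only: it encodes a partner protein used in meiotic recombination and no subunit.

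The 20S core is a barrel of outer alpha rings, which gate the entry, and inner beta rings, which hold the active sites. The 19S particle caps the barrel: its ATPases unfold substrates, and its lid removes ubiquitin. Macrophages exposed to interferon-gamma are known to exchange the active beta subunits for those of the immunoproteasome and to make more of the PA28 activator, which changes the peptides made for presentation on MHC class I.

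The cells were bone marrow-derived macrophages grown from C57BL/6 mice, with no engineered allele in any group. Unstimulated cells (0h, M0) were compared with cells treated with 5 ng/ml of lipopolysaccharide (LPS) together with 12 ng/ml of interferon-gamma (IFNg), which drives the inflammatory M1 state, after 4h, 8h, 16h or 24h. A second arm received the same LPS and IFNg and, 4 h later, lactic acid, and was sampled at 8h, 16h and 24h. The prefix LA marks these groups (LA 8h and so on), with the time counted from LPS and IFNg as the label's time field has it. The series' own text can also be read as time since lactic acid, in which case each of these groups would have had 4 h more of LPS and IFNg than the group it is set against. The dose of lactic acid and the age of the mice are not given in the labels. Each of the 8 groups held 4 RNA libraries, and the labels do not say whether these came from separate mice or cultures, so p-values measure only the spread between libraries. Lactylation (H3K18la) and acetylation (H3K18ac) of histone H3 were mapped by ChIP-seq in M0 and in M1 at 24h, with 1 library each.

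Depth, by reads recovered from the RPKM, was 60.6 to 103.9 M over the listed genes of a library. All 7 macrophage markers sought were listed, with a summed level of 17700 to 20200 RPKM at 0h, 12200 to 14200 at 8h, 22100 to 32600 at 16h and 35500 to 47700 at 24h. It was 8800 to 9400 in LA 8h, 15900 to 20000 in LA 16h and 36600 to 51900 in LA 24h, and the lymphocyte markers were listed only as Cd4, at 0.0325 to 0.771 RPKM. Of 8 neutrophil markers 5 were listed, summing to 10.4 to 16.1 RPKM at 0h and 55.4 to 84.2 at 4h, 56.3 to 70.4 at 8h and 38.8 to 51.0 in LA 8h. The part of these shifts in the results was not tested. On the second principal component 24h replicate 4 and LA 24h replicate 1 stood apart from their groups. The table of the authors lists genes by their own test, and 11165 of 11184 have a deposited FDR under 0.05, so shares of genes called here are shares of a list of changing genes.

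The first question is what LPS and IFNg did to these genes. At 4h 43 of the 46 were higher than at 0h and 1 was lower, with a median log2 fold change of 0.94 (limma on log2(RPKM + 1), adjusted p under 0.05). Among all genes tested, 42.5% rose and 42.7% fell, with a median of 0.00. At 8h 40 members rose and 3 fell (median 1.20), beside 40.7% of all genes higher and 42.1% lower. At 16h 38 rose and 5 fell (median 0.83), beside 39.9% and 36.9% of all genes. At 24h 33 rose and 4 fell (median 0.51), beside 39.9% and 37.3% of all genes. The values are bulk RNA, in which more cells of a kind and more RNA per cell cannot be told apart, and all of these comparisons share the 0h libraries.

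The scaling of the libraries bears on these counts. The size by which the authors divided each library was recovered here from the RPKM. It was 1.324 to 1.342 times the library's reads in listed genes at 0h, and 0.908 to 0.946 times at 4h. With each library divided by its own listed reads instead (listed-read scaling), the median of all genes moved to -0.43, -0.40, -0.30 and -0.37 in time order from 4h to 24h. The members then had medians of 0.43, 0.73, 0.45 and 0.04 in that order, with 31, 35, 33 and 19 higher and 5, 7, 8 and 15 lower, beside 23.5%, 22.1%, 21.0% and 17.0% of all genes higher and 63.7%, 64.0%, 60.8% and 66.3% lower. On that scale 26.9%, 25.7%, 25.6% and 20.4% of the called genes were higher, in place of 49.9%, 49.2%, 51.9% and 51.65%.

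**Figure D1:**
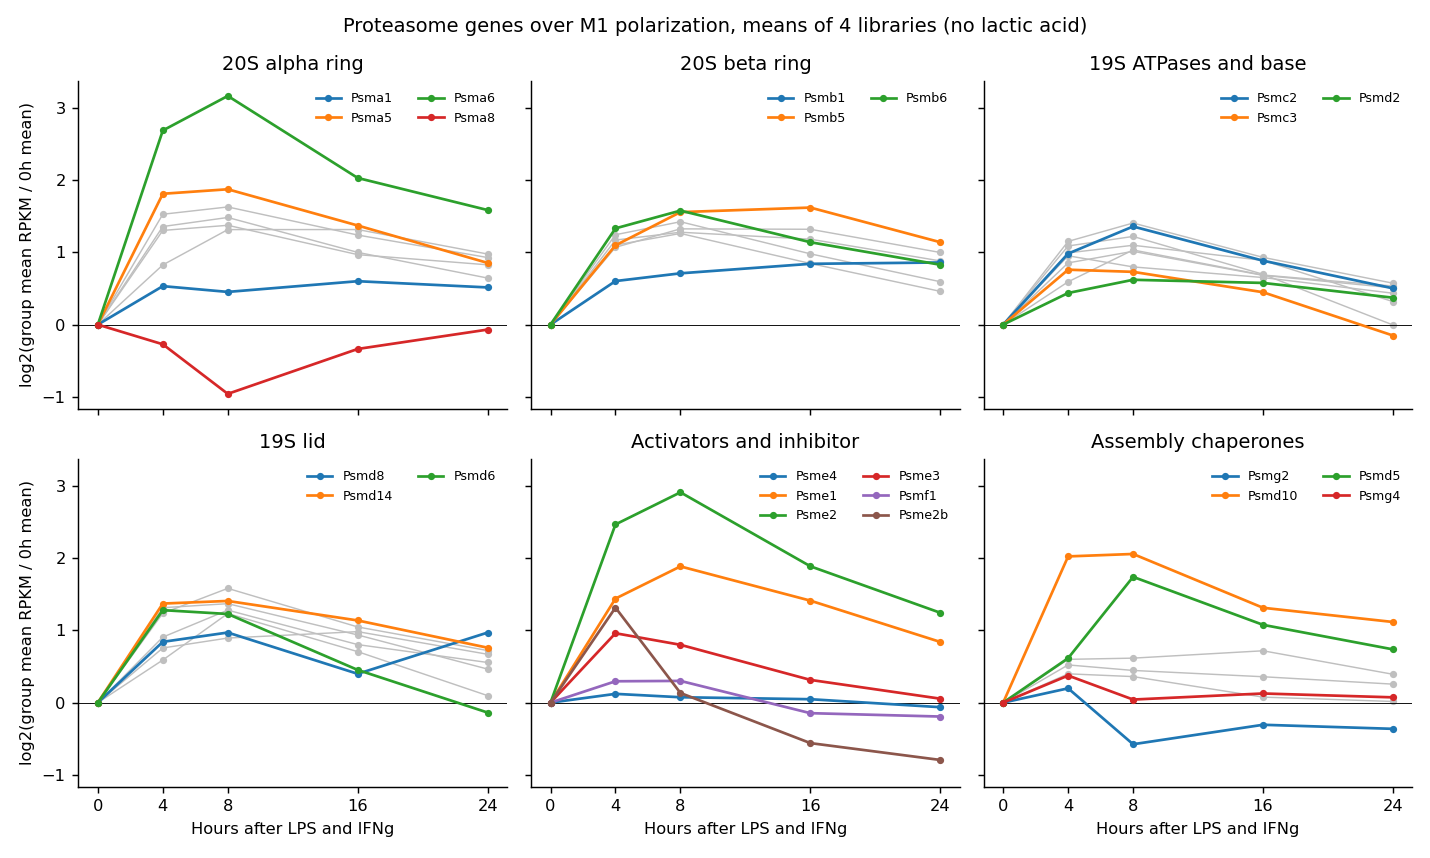
Each line is 1 gene: the log2 ratio of its group mean (n = 4 libraries) to its mean at 0h, against hours after LPS and IFNg, by role. Named genes are coloured and the others grey. Psma6 and Psme2 rise furthest and peak at 8h, and Psme4 stays near 0. The ratio has no pseudocount, so that Psma8, near 1 RPKM, falls further here than in the test.

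By group mean, 28 members were highest at 8h and 11 at 4h. Another 5 were highest at 16h (Psmb5, Psmd13, Psma1, Psmg3 and, by a margin far inside its spread, Psma7), 1 at 24h (Psmb1) and 1 at 0h (Psma8). Other margins were inside the spread too. Psmb1 was at 289 ± 53.1 RPKM at 24h and 285 ± 36.2 at 16h (SD, n = 4). Psmb5 was at 249 ± 35.4 at 16h and 239 ± 11.6 at 8h, and Psmd8 at 201 at both 8h and 24h. Between 4h and 24h 33 members fell and 1 rose, with a median of -0.49, while of all genes 41.3% fell and 42.3% rose. The largest drops from 4h were those of Psme2b (-1.74, SE 0.11), the lid gene Psmd6 (-1.39, SE 0.07), Psme2 (-1.24, SE 0.11) and Psmc3ip (-1.16, SE 0.07). The 1 gene that rose was Psmb1 (0.24, SE 0.10), which no longer passed without 24h replicate 4 (0.12) or without 4h replicate 1 (0.22).

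In the alpha ring, 7 of 8 genes rose at each of the 4 times, or 6, 6, 7 and 6 under listed-read scaling. Of all genes 42.5%, 40.7%, 39.9% and 39.9% rose at these times, or 23.5%, 22.1%, 21.0% and 17.0% on that scale. The same shares stand beside the counts of the other roles below. Psma6 led all members. Psma6 stood at 103, 93.5, 87.9 and 90.6 RPKM in the 4 libraries of 0h. Psma6 was then at 548, 638, 628 and 606 RPKM in the 4h libraries and 823, 770, 872 and 908 in those of 8h. Later, Psma6 was at 344, 434, 425 and 330 RPKM (16h) and 267, 287, 231 and 342 (24h). The 0h libraries lay below all others, and 8h was highest, with no overlap between 4h and 8h. The log2 fold change was 2.68 (SE 0.09) at 4h and 3.16 (SE 0.09) at 8h (limma adjusted p = 2.7e-24), and still 1.57 at 24h. Set against Psma2, another alpha subunit of the same ring, the ratio of Psma6 to Psma2 went from 0.732 ± 0.0127 at 0h to 2.53 ± 0.0855 at 8h (SD, n = 4), a change that no scaling of the libraries can alter.

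RefSeq gives Psma6 a pair of start sites, on chromosome 12 at 55384222 and 55398825. All 4 histone lists hold a peak within 1 kb of the second, with an authors' fold enrichment of 9.83 for H3K18la and 6.03 for H3K18ac in M0 and of 8.43 and 7.2 in M1. Of the 4, only the H3K18ac list of M1 holds 1 within 1 kb of the first. The 120 bases before the second start (chr12:55398705-55398824, GRCm38.p6, plus strand, 5′ to 3′) are shown because the peaks of the member with the largest rise lie over them. Capitals mark an ETS motif, CGGAAG, whose first base is at -24 from the start.
Psma6, second start: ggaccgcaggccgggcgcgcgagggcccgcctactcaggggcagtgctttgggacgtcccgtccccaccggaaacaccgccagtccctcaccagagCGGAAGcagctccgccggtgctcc

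Psma5, another alpha subunit, rose by 1.80 (SE 0.09) at 4h and 1.86 (SE 0.09) at 8h, from 59.9 ± 2.41 to 210 ± 12.3 and 220 ± 9.19 RPKM (SD, n = 4). Psma3 stood at 24.8, 22.5, 19.8 and 21.3 RPKM in the 4 libraries of 0h. Psma3 was then at 57.9, 70.1, 63.0 and 64.0 RPKM in the 4h libraries and 66.6, 62.2, 71.9 and 72.9 in those of 8h. Later, Psma3 was at 47.7, 58.5, 57.1 and 45.7 RPKM (16h) and 40.6, 42.6, 35.1 and 50.01 (24h). The groups after stimulation did not overlap with 0h for Psma3, and the rise at 8h was 1.59 (SE 0.09). Psma8, the form made in testis in place of Psma7, was at 1.08 ± 0.0647 RPKM at 0h and 0.555 ± 0.113 at 8h. Its log2 fold change at 8h was -0.42 (SE 0.07), while that at 4h (-0.14) was lost in edgeR's test and without 6 of the 8 libraries in turn.

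All 7 beta ring genes rose at each of the 4 times, or 6, 7, 7 and 5 under listed-read scaling. Its active subunits are Psmb5 (the chymotrypsin-like site), Psmb6 (the caspase-like site) and Psmb7 (the trypsin-like site). Psmb5 stood at 90.7, 84.4, 70.4 and 78.4 RPKM in the 4 libraries of 0h. Psmb5 was then at 173, 174, 172 and 175 RPKM in the 4h libraries and 238, 223, 245 and 249.0 in those of 8h. Later, Psmb5 was at 240, 287, 265 and 204 RPKM (16h) and 166, 181, 150 and 219 (24h). The libraries at 16h spanned those at 8h, and the log2 fold change was 1.55 (SE 0.10) at 8h and 1.60 (SE 0.10) at 16h. Psmb5 was thus as high at 16h as at 8h.

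Psmb6 stood at 95.8, 96.1, 86.6 and 91.2 RPKM in the 4 libraries of 0h. Psmb6 was then at 226, 242, 227 and 237 RPKM in the 4h libraries and 280, 253, 288 and 285 in those of 8h. Later, Psmb6 was at 190, 233, 222 and 172 RPKM (16h) and 157, 156, 134 and 210 (24h). Psmb6 was highest at 8h (1.57, SE 0.09), and its 24h libraries still lay above those at 0h. Psmb7 stood at 19.7, 19.3, 16.6 and 17.5 RPKM in the 4 libraries of 0h. Psmb7 was then at 38.5, 44.0, 41.1 and 41.3 RPKM in the 4h libraries and 42.7, 41.8, 46.3 and 46.9 in those of 8h. Later, Psmb7 was at 39.9, 45.7, 44.1 and 36.5 RPKM (16h) and 33.2, 33.0, 28.5 and 40.2 (24h). The rise of Psmb7 was 1.24 (SE 0.08) at 8h and 0.84 (SE 0.08) at 24h. Psmb1, a beta subunit with no active site, rose by 0.60 at 4h, the smallest rise of the beta ring then, and by 0.84 at 24h, level with Psmb7. Under listed-read scaling Psmb1 did not pass at 4h (0.07).

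The promoters of Psmb5 and Psmb6 each hold the core of the antioxidant response element, TGACNNNGC, the kind of site bound by Nfe2l1 and Nfe2l2. Over all members this core was about as frequent as among tested genes (14.6% and 14.7% of promoter windows). It is in capitals in the 120 bases before each start, on the strand of the gene: Psmb5 at chr14:54617996-54618115, minus strand, and Psmb6 at chr11:70525237-70525356, plus strand (GRCm38.p6, 5′ to 3′). The first base of the motif is at -47 in Psmb5 and at -9 in Psmb6.
Psmb5: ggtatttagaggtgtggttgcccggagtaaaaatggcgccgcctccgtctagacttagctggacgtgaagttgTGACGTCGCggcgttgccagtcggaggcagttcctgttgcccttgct
Psmb6: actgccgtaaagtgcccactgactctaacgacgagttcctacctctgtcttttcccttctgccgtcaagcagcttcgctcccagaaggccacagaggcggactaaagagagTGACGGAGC

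These 3 active subunits have immunoproteasome counterparts that are measured in the same libraries: Psmb8 takes the place of Psmb5, Psmb9 of Psmb6 and Psmb10 of Psmb7. The counterparts rose at 4h by 1.76, 1.73 and 2.62 in that order. The ratio of Psmb10 to Psmb7 was 3.21 ± 0.31 at 0h, went to 8.83 ± 0.139 at 4h and 9.72 ± 0.673 at 8h, and was back at 3.31 ± 0.101 by 16h and 2.99 ± 0.355 by 24h (SD, n = 4). The ratio of Psmb8 to Psmb5 rose from 0.496 ± 0.0479 to 0.792 ± 0.0298 at 4h and was 0.381 ± 0.0117 at 16h, under every library of 0h. The ratio of Psmb9 to Psmb6 went from 0.195 ± 0.0161 to 0.266 ± 0.0111 at 4h and 0.153 ± 0.00921 at 24h. So the immunoproteasome genes gained on the constitutive ones at 4h and 8h for Psmb8 and Psmb10, and by 24h all 3 ratios were near or under those of 0h. The gene lengths behind the RPKM, which were recovered from it (3421 bases for Psmb7), set the size of such a ratio. They cancel from its change between groups. A trend on gene length that differs between libraries does not cancel. With that trend removed from each library, the rise of Psmb10 went from 2.86 to 2.59 at 8h and from 0.76 to 0.40 at 24h. That of Psmb7 went from 1.24 to 1.23 at 8h.

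**Figure D2:**
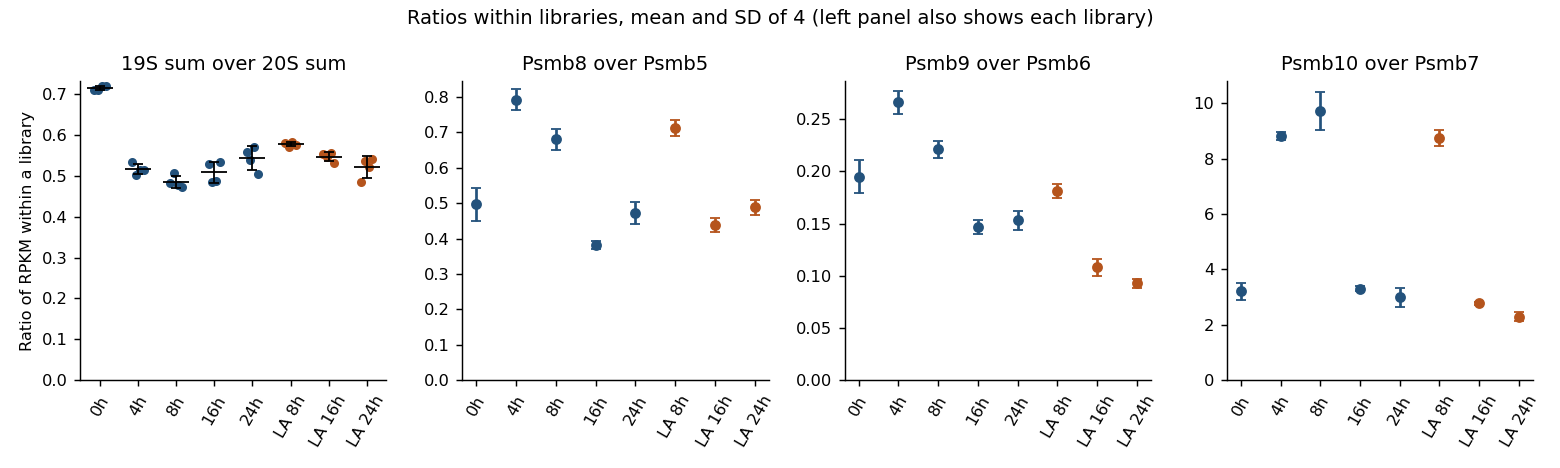
Ratios of RPKM within a library, by group, as mean and SD of 4 libraries: 17 genes of the 19S particle over 14 of the 20S core (each library shown), and each immunoproteasome subunit over the constitutive subunit it replaces. Lactic acid groups are in orange. The first ratio is highest at 0h, and the other 3 are highest at 4h or 8h.

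All 6 ATPase genes of the 19S base rose at 4h, 8h and 16h, and 4 of 6 at 24h. There listed-read scaling left 0 higher and 2 lower (median -0.02), beside 17.0% and 66.3% of all genes. Psmc2 stood at 21.4, 19.8, 18.3 and 19.9 RPKM in the 4 libraries of 0h. Psmc2 was then at 37.3, 40.3, 39.3 and 40.03 RPKM in the 4h libraries and 48.3, 48.9, 53.6 and 52.8 in those of 8h. Later, Psmc2 was at 35.5, 39.1, 38.8 and 33.2 RPKM (16h) and 26.8, 27.7, 24.3 and 33.5 (24h). Psmc2 rose by 1.32 (SE 0.07) at 8h, where its libraries lay above those of all other times. Psmc3 and Psmc4 did not pass at 24h (-0.15 and -0.01). Psmc1 rose by 0.59 at 4h and 1.03 at 8h. The 120 bases before its start (chr12:100110082-100110201, GRCm38.p6, plus strand, 5′ to 3′) hold the ETS motif on the other strand at -100, -62 and -28, in capitals as CTTCCG. They are shown as an example of the motif met most often among the members.
Psmc1: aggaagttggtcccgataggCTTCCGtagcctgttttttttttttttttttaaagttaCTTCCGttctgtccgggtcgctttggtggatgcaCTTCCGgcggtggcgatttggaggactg

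Of the scaffold and receptor genes of the base, Psmd1, Psmd2 and the ubiquitin receptor Psmd4, 3 of 3 rose at each time. At 24h 0 were higher and 1 lower under listed-read scaling, beside 17.0% and 66.3% of all genes. Psmd1 stood at 17.1, 16.7, 15.0 and 15.6 RPKM in the 4 libraries of 0h. Psmd1 was then at 31.6, 32.5, 31.9 and 32.1 RPKM in the 4h libraries and 34.2, 34.9, 34.3 and 34.5 in those of 8h. Later, Psmd1 was at 29.8, 31.1, 30.6 and 27.8 RPKM (16h) and 21.8, 22.6, 20.1 and 15.7 (24h). Psmd1 stood at about the same level at 4h and 8h (0.95 and 1.06), and 24h replicate 4 lay among the 0h libraries. All 8 lid genes rose at 4h, 8h and 16h and 6 of 8 at 24h, or 4 with 2 lower under listed-read scaling. Psmd14 stood at 32.6, 28.9, 25.6 and 27.6 RPKM in the 4 libraries of 0h. Psmd14 was then at 66.6, 78.6, 76.9 and 75.0 RPKM in the 4h libraries and 72.2, 73.4, 81.7 and 77.3 in those of 8h. Later, Psmd14 was at 56.9, 72.0, 69.0 and 54.8 RPKM (16h) and 46.3, 51.8, 42.5 and 53.8 (24h). Psmd14, the lid enzyme that cuts ubiquitin off substrates, rose by 1.35 (SE 0.08) at 4h and 1.38 (SE 0.08) at 8h, with no library overlapping 0h. Later the lid genes differed. Psmd6 did not pass at 24h (25.6 ± 1.45 RPKM at 0h and 23.3 ± 2.75 at 24h), and Psmd8 was as high at 24h (201 ± 37.6) as at 8h (201 ± 9.25), with 16h lower (135 ± 11.2).

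The core gained more than the cap. The summed RPKM of 14 core genes (all but Psma8) was 982 ± 55.8 at 0h and 3050.1 ± 174 at 8h, and that of 17 genes of the 19S particle 702 ± 35.9 and 1476 ± 41.9 (SD, n = 4). Within a library the 19S sum over the 20S sum was 0.7104, 0.7105, 0.718 and 0.719 at 0h and 0.482, 0.506, 0.477 and 0.472 at 8h. It was 0.516 ± 0.0127 at 4h, 0.508 ± 0.0264 at 16h and 0.543 ± 0.0289 by 24h, and no library after stimulation reached the lowest of 0h. Psma6 weighs on the sum. The ratio of geometric means, in which each gene counts alike, fell as well, from 0.582 ± 0.00453 to 0.464 ± 0.0145 at 8h. It was 0.438 ± 0.0233 at 16h and 0.431 ± 0.0273 by 24h, so that the partial return of the ratio of sums was not seen in it. Neither ratio is free of gene length. With the length trend removed, core genes (with Psma8) and 19S genes had median log2 fold changes of 1.23 and 1.07 at 8h. These stood in place of 1.37 and 1.18. At 24h the medians were 0.52 and 0.42, in place of 0.83 and 0.48.

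The activators differed among themselves. Psme1 and Psme2 form the PA28 ring that IFNg is known to induce. Psme2 stood at 84.4, 80.5, 76.8 and 76.0 RPKM in the 4 libraries of 0h. Psme2 was then at 415, 459, 442 and 443 RPKM in the 4h libraries and 582, 566, 626 and 622 in those of 8h. Later, Psme2 was at 279, 334, 320 and 244 RPKM (16h) and 180, 170, 153 and 250 (24h). The rise was 2.46 (SE 0.11) at 4h and 2.90 (SE 0.11) at 8h (limma adjusted p = 1.8e-21), and all libraries after stimulation lay above 0h. Psme1 stood at 60.5, 61.0, 58.1 and 59.6 RPKM in the 4 libraries of 0h. Psme1 was then at 152, 174, 160 and 165 RPKM in the 4h libraries and 220, 205, 234 and 227 in those of 8h. Later, Psme1 was at 151, 173, 170 and 144 RPKM (16h) and 105, 98.6, 89.7 and 136 (24h). Psme1 rose by 1.43 (SE 0.09) and 1.87 (SE 0.09). The ratio of Psme2 to Psme1 was 1.33 ± 0.0491 at 0h, rose to 2.71 ± 0.0555 at 4h and 2.71 ± 0.0596 at 8h, and was 1.75 ± 0.0624 by 24h, so the partner genes did not keep their proportion.

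The 120 bases before the start of Psme2 (chr14:55591102-55591221, GRCm38.p6, minus strand, 5′ to 3′) are shown for comparison with Psma6, as the member with the second-largest rise. None of the 5 motifs searched is in this stretch, and a peak of each mark lay within 1 kb in both states.
Psme2: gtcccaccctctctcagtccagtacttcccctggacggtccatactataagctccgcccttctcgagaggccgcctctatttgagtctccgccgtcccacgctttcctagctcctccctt

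Psme3 stood at 20.5, 18.9, 17.5 and 18.9 RPKM in the 4 libraries of 0h. Psme3 was then at 37.9, 35.6, 37.2 and 37.1 RPKM in the 4h libraries and 32.7, 33.0, 32.7 and 33.9 in those of 8h. Later, Psme3 was at 24.5, 22.3, 23.3 and 24.3 RPKM (16h) and 20.8, 19.6, 19.4 and 18.96 (24h). Psme3, the PA28 gamma activator of the nucleus, was thus highest at 4h (0.93, SE 0.05) and back among the 0h libraries at 24h (0.05, not past the test). Psme4 stood at 10.3, 10.3, 11.1 and 9.61 RPKM in the 4 libraries of 0h. Psme4 was then at 10.6, 11.3, 11.8 and 11.2 RPKM in the 4h libraries and 11.03, 11.7, 10.8 and 9.95 in those of 8h. Later, Psme4 was at 10.6, 9.66, 10.3 and 12.1 RPKM (16h) and 10.4, 9.16, 11.02 and 9.01 (24h). Psme4, which encodes the PA200 activator, passed the test at none of the 4 times, with log2 fold changes of 0.11, 0.07, 0.04 and -0.06. It passed in opposite directions under 2 alternatives. Under listed-read scaling it was lower at all 4 times (-0.38, -0.38, -0.32 and -0.50), and with the length trend removed it was higher at the first 3 (0.20, 0.22 and 0.21).

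Psme2b, a retrocopy of Psme2 with which it may share reads, went from 3.84 ± 0.660 to 9.56 ± 0.903 RPKM at 4h and 2.21 ± 0.671 at 24h. Its course differed from that of Psme2, but how reads were split between the pair is uncertain. Psmf1 stood at 4.70, 4.29, 4.51 and 4.87 RPKM in the 4 libraries of 0h. Psmf1 was then at 5.64, 5.56, 5.78 and 5.58 RPKM in the 4h libraries and 5.89, 5.49, 5.82 and 5.43 in those of 8h. Later, Psmf1 was at 4.25, 3.67, 3.92 and 4.77 RPKM (16h) and 3.91, 3.63, 4.13 and 4.40 (24h). Psmf1, the inhibitor PI31, rose by 0.25 (SE 0.06) at 4h and 0.25 (SE 0.06) at 8h, and fell at 16h (-0.12) and 24h (-0.16), where the libraries overlapped with 0h. Its direction turned under listed-read scaling, where it was lower at 4h (-0.20) and 8h (-0.15).

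**Figure D3:**
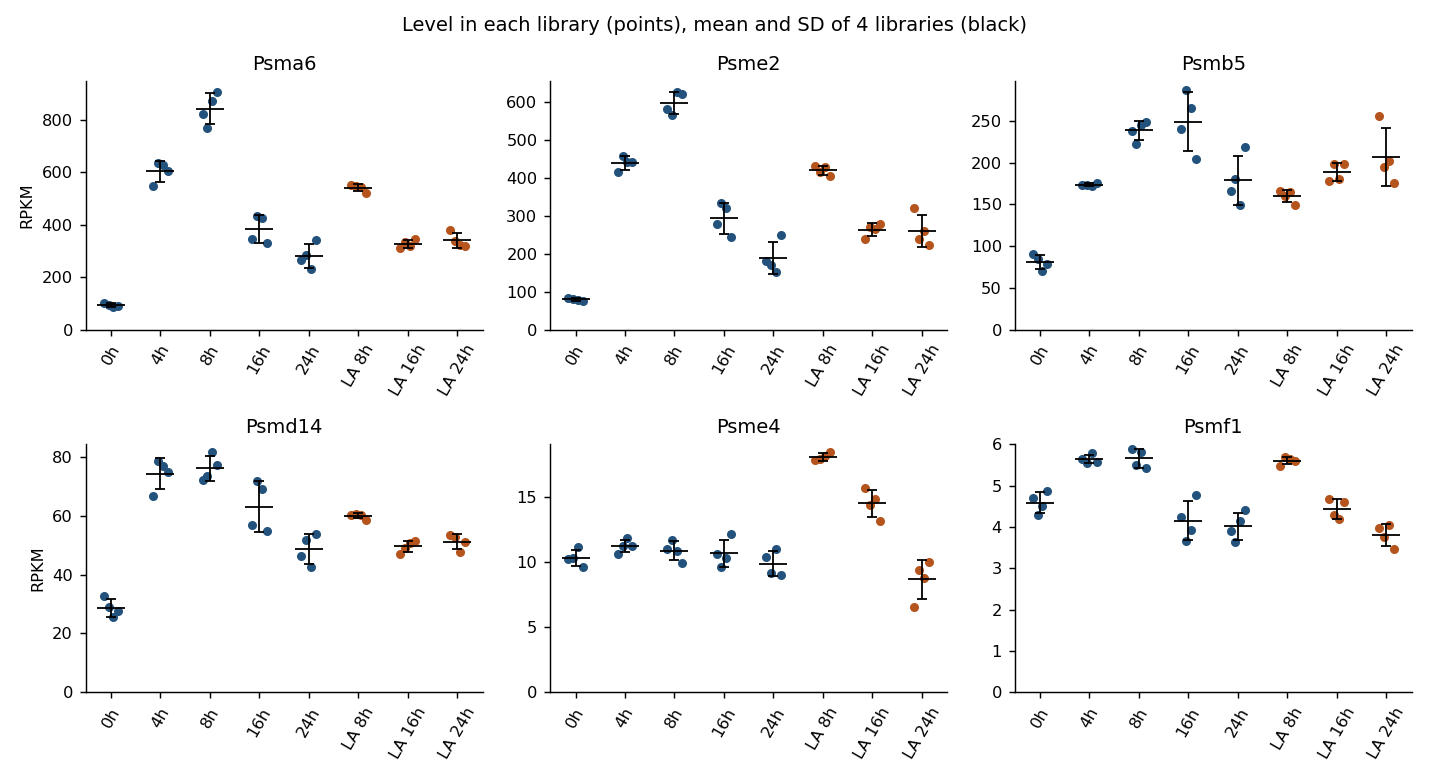
RPKM of 6 genes in every library (points), with the mean and SD of 4 libraries in black, in blue without and in orange with lactic acid. Each axis starts at 0. Psma6 and Psme2 peak at 8h and are lower with lactic acid at 8h, while Psme4 is flat without lactic acid and higher with it at 8h and 16h.

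Of the chaperones that help assemble the base, Psmd10 (gankyrin), Psmd5 and Psmd9 all rose at 4h and 8h. Under listed-read scaling 1 was higher and 1 lower at 4h, beside 23.5% and 63.7% of all genes. Psmd9 was then lower (-0.11) and Psmd5 did not pass (0.08). At 8h 2 were higher and 0 lower on that scale, beside 22.1% and 64.0%. Psmd10 stood at 20.1, 19.5, 18.5 and 19.1 RPKM in the 4 libraries of 0h. Psmd10 was then at 73.7, 83.8, 81.0 and 76.3 RPKM in the 4h libraries and 79.2, 75.1, 82.3 and 85.6 in those of 8h. Later, Psmd10 was at 46.0, 53.0, 50.1 and 43.1 RPKM (16h) and 39.1, 42.9, 35.3 and 50.3 (24h). The rise of Psmd10 was 1.97 (SE 0.08) and 2.00 (SE 0.08), behind that of Psma6 and Psme2, and no library overlapped 0h. Psmd5 went from 5.78 ± 0.444 to 8.86 ± 0.410 RPKM at 4h and 19.4 ± 0.579 at 8h (SD, n = 4), so that most of its rise came after 4h.

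The core chaperones Psmg1 to Psmg4 had medians of 0.41 at 4h and 0.22 at 8h, which turned to -0.07 and -0.22 under listed-read scaling. Psmg1 stood at 10.2, 8.56, 8.37 and 7.08 RPKM in the 4 libraries of 0h. Psmg1 was then at 11.4, 13.2, 12.2 and 12.3 RPKM in the 4h libraries and 11.2, 10.8, 11.9 and 12.6 in those of 8h. Later, Psmg1 was at 11.2, 12.1, 11.7 and 8.91 RPKM (16h) and 9.41, 10.7, 8.53 and 12.2 (24h). Psmg1 passed at 4h (0.48, SE 0.10) and 8h (0.41, SE 0.10), but under listed-read scaling its value at 8h was -0.02. Psmg2, which pairs with Psmg1, fell at 8h by 0.52 on the log2 scale (SE 0.09), from 11.05 ± 1.07 to 7.41 ± 0.481 RPKM, with no overlap. Psmg1 is shown because the 120 bases before its start (chr16:95990961-95991080, GRCm38.p6, minus strand, 5′ to 3′) hold the ETS motif at -103, -68 and -36, in capitals, and because it had no H3K18la peak in M1.
Psmg1: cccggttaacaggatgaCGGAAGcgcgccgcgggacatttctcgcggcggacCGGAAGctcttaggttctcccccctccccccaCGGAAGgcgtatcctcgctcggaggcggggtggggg

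The second question is how lactic acid, added 4 h into the stimulation, changed these genes. At 8h 36 of 46 members fell with lactic acid and 3 rose (median -0.34), beside 36.0% of all tested genes lower and 32.1% higher and a median of -0.02. At 16h 29 fell and 4 rose (median -0.22), beside 31.0% and 30.2% of all genes; without 16h replicate 2, 18 fell. At 24h 14 were higher and 5 lower (median 0.09), beside 25.5% and 21.7% of all genes (median 0.01). The share higher was thus near that of all genes. The difference between the effects at 24h and 8h was itself tested, and 34 members moved up and 4 down, with a median of 0.40, beside 32.7% and 29.7% of all genes.

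The count at 24h rested on single libraries and on the scaling. It was 7 higher without 24h replicate 3, 8 without LA 24h replicate 1 and 23 without 24h replicate 4. When only these 8 libraries were fitted it was 4, beside 12.6% of all genes. Under listed-read scaling 5 were higher and 17 lower, beside 10.4% and 46.4% of all genes. The median of all genes was then -0.15, and of all called genes 18.3% were higher in place of 54.0%. Of the genes named below as higher at 24h, Psma6 (0.07), Psmb7 (-0.02), Psme1 (0.03), Psmd2 (-0.06) and Psmd10 (0.02) no longer passed on that scale. Psma7 (0.23), Psmb6 (0.21), Psme2 (0.26) and Psmd11 (0.15) did. The authors' size, recovered as above, was set over the reads in listed genes. This ratio was 0.756 in LA 24h replicate 1 and 0.822 to 0.864 in the others of its group. It was 0.856 in 24h replicate 4 and 0.966 to 1.021 in the others of that group. The part of this in the result was not tested. For the difference between 24h and 8h, the same scaling left 18 up and 7 down, beside 16.8% and 47.9% of all genes. The median of the members was 0.11 beside -0.20 for all genes, 25.96% of whose calls were up in place of 52.4%.

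**Figure D4:**
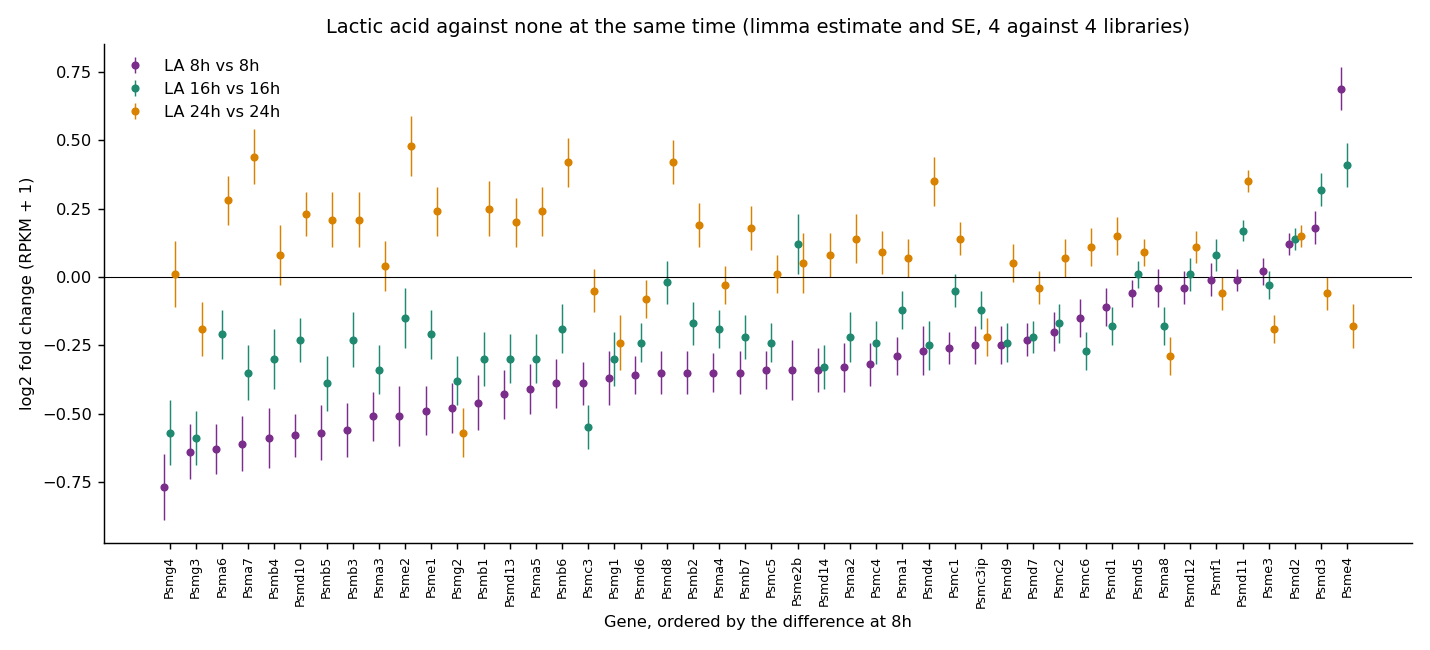
Log2 fold change of lactic acid against none at 8h, 16h and 24h for each of the 46 genes (limma estimate and SE, 4 against 4 libraries), ordered by the value at 8h. Most genes are under 0 at 8h, and Psme4, Psmd3 and Psmd2 at the right end are above it. At 24h many genes of the left side are above 0.

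Psma6 was among the genes that fell most. With lactic acid Psma6 was at 552, 549, 544 and 523 RPKM after 8h, 312, 334, 320 and 347 after 16h and 379, 338, 323 and 321 after 24h. At 8h the 4 libraries with lactic acid lay below the 4 without (-0.63, SE 0.09), at 16h the groups overlapped (-0.21, SE 0.09) and at 24h they overlapped as well (0.28, SE 0.09). The ratio of Psma6 to Psma2 was 2.05 ± 0.0314 with lactic acid at 8h, under the 2.43 to 2.63 without. Psma7, whose place Psma8 takes in testis, changed sign, from -0.61 (SE 0.10) at 8h to 0.44 (SE 0.10) at 24h, with levels of 60.2, 59.1, 61.5 and 55.3 and of 118, 93.4, 89.5 and 90.2 RPKM. With lactic acid Psma3 was at 46.6, 49.8, 47.7 and 46.7 RPKM after 8h, 39.4, 42.2, 38.6 and 43.2 after 16h and 45.4, 43.9, 41.4 and 40.5 after 24h. Psma3 fell at 8h (-0.51, SE 0.09) and 16h (-0.34) and did not pass at 24h (0.04).

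All 7 beta ring genes fell at 8h, beside 36.0% of all genes. With the length trend removed 5 fell, without Psmb1 (-0.09) and Psmb2 (-0.01), beside 34.4% of all genes. With lactic acid Psmb5 was at 165, 160, 165 and 150 RPKM after 8h, 178, 198, 181 and 198 after 16h and 256, 195, 202 and 175 after 24h. Psmb5 was lower at 8h (-0.57, SE 0.10) and at 16h (-0.39, SE 0.10), with no overlap at either time, and did not pass at 24h (0.21). With the length trend removed it was at -0.17 and -0.16, both still passing. With lactic acid Psmb6 was at 211, 209, 215 and 205 RPKM after 8h, 171, 178, 174 and 186 after 16h and 248, 216, 219 and 189 after 24h. Psmb6 turned from -0.39 (SE 0.09) at 8h to 0.42 (SE 0.09) at 24h, where the groups overlapped. With lactic acid Psmb7 was at 34.8, 35.3, 34.8 and 33.9 RPKM after 8h, 33.5, 36.8, 35.2 and 36.0 after 16h and 41.8, 37.9, 37.2 and 36.1 after 24h. Psmb7 went from -0.35 at 8h to 0.18 at 24h, where its groups overlapped too.

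The immunoproteasome genes fell too at 8h: Psmb8 by 0.51, Psmb9 by 0.67 and Psmb10 by 0.50 on the log2 scale. The ratio of Psmb8 to Psmb5 was 0.712 ± 0.0233 with and 0.68 ± 0.0304 without lactic acid at 8h, where the libraries overlapped. At 16h it was 0.437 ± 0.0198 with and 0.381 ± 0.0117 without, higher with no overlap, and at 24h 0.488 ± 0.0206 and 0.472 ± 0.0316, with overlap. That of Psmb9 to Psmb6 was lower with lactic acid at every time, 0.181 ± 0.00691 at 8h, 0.108 ± 0.00808 at 16h and 0.0927 ± 0.00407 at 24h, against 0.221 ± 0.00847, 0.147 ± 0.00688 and 0.153 ± 0.00921, with no overlap. That of Psmb10 to Psmb7 overlapped at 8h (8.75 ± 0.282 with and 9.72 ± 0.673 without) and was lower with no overlap at 16h (2.78 ± 0.0632 and 3.31 ± 0.101) and 24h (2.29 ± 0.162 and 2.99 ± 0.355). The 3 ratios thus did not move alike.

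Of the 17 genes of the 19S particle, 12 fell and 2 rose at 8h, beside 36.0% and 32.1% of all genes. With the length trend removed 10 fell and 0 rose. At 16h 11 fell and 3 rose, beside 31.0% and 30.2%. At 24h 4 rose and 0 fell, beside 25.5% and 21.7%, so the share higher was near that of all genes. Under listed-read scaling 2 were higher and 6 lower at 24h, beside 10.4% and 46.4%. With lactic acid Psmc2 was at 45.1, 43.9, 45.4 and 42.8 RPKM after 8h, 30.7, 33.5, 31.8 and 33.4 after 16h and 31.4, 29.3, 29.3 and 27.5 after 24h. Psmc2 fell by 0.20 on the log2 scale at 8h and did not pass at 24h (0.07); under listed-read scaling the fall was -0.11. With lactic acid Psmd1 was at 31.2, 32.1, 31.1 and 32.7 RPKM after 8h, 25.4, 27.4, 25.8 and 26.3 after 16h and 20.5, 24.3, 20.9 and 23.2 after 24h. Psmd1 passed at 16h (-0.18, SE 0.07) but there not under listed-read scaling (-0.14), and not at 8h (-0.11) or 24h (0.15). With lactic acid Psmd14 was at 60.3, 60.5, 60.4 and 58.7 RPKM after 8h, 47.1, 49.0, 50.9 and 51.4 after 16h and 53.3, 52.9, 47.7 and 51.0 after 24h. Psmd14 was lower at 8h (-0.34, SE 0.08) and 16h (-0.33), with no overlap at either time.

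A few genes of the cap went the other way. Psmd3, a lid subunit, rose at 8h (0.18, SE 0.06) and 16h (0.32, SE 0.06), at 30.5, 29.7, 30.03 and 29.96 RPKM with lactic acid at 16h and 25.3, 22.2, 23.0 and 24.8 without. The scaffold gene Psmd2 rose at 8h (0.12, SE 0.04), 16h (0.14) and 24h (0.15), and the lid gene Psmd11 at 16h (0.17) and 24h (0.35). With the length trend removed, the rises of Psmd3 and Psmd2 at 8h (0.08 and 0.08) and of Psmd11 at 16h (0.07) no longer passed. The sum of the 19S genes over that of the 20S genes was 0.5796, 0.5703, 0.582 and 0.576 with lactic acid at 8h, above all 4 libraries without. At 24h it was 0.522 ± 0.0259 with and 0.543 ± 0.0289 without, and the libraries overlapped. The higher ratio at 8h is not free of gene length. With the length trend removed, core and 19S genes had median log2 fold changes of -0.18 and -0.17 at 8h, in place of -0.41 and -0.26.

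Psme4 rose with lactic acid at 8h and 16h. With lactic acid Psme4 was at 17.8, 17.9, 18.1 and 18.5 RPKM after 8h, 15.7, 14.4, 14.8 and 13.2 after 16h and 6.55, 9.39, 8.80 and 10.00 after 24h. At 8h and 16h every library with lactic acid lay above every library without. The log2 fold change was 0.69 (SE 0.08) at 8h (limma adjusted p = 3.7e-08), 0.41 (SE 0.08) at 16h and -0.18 (SE 0.08) at 24h, which did not pass. The effect differed between 24h and 8h by -0.87 (SE 0.12). With the length trend removed the rise at 8h was 0.46, and under listed-read scaling it was 0.77, and both passed.

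With lactic acid Psme2 was at 431, 416, 429 and 405 RPKM after 8h, 239, 272, 265 and 279 after 16h and 320, 239, 261 and 222 after 24h. Psme2 fell at 8h (-0.51, SE 0.11), did not pass at 16h (-0.15) and was higher at 24h (0.48, SE 0.11), where the groups overlapped and the call was lost when only these libraries were fitted. With lactic acid Psme1 was at 165, 152, 161 and 151 RPKM after 8h, 136, 137, 135 and 140 after 16h and 150, 116, 127 and 111 after 24h. Psme1 followed with -0.49, -0.21 and 0.24, and its groups overlapped at 24h. The ratio of Psme2 to Psme1 at 8h was 2.67 ± 0.0543 with and 2.71 ± 0.0596 without lactic acid, within the spread of the libraries. At 24h it was 2.06 ± 0.053 with and 1.75 ± 0.0624 without, with no overlap.

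With lactic acid Psme3 was at 32.8, 33.2, 33.5 and 34.5 RPKM after 8h, 22.9, 24.4, 22.03 and 23.0 after 16h and 17.1, 16.4, 18.2 and 16.9 after 24h. Psme3 did not pass at 8h or 16h (0.02 and -0.03) and was lower at 24h (-0.19, SE 0.05). With lactic acid Psmf1 was at 5.48, 5.69, 5.64 and 5.59 RPKM after 8h, 4.68, 4.28, 4.19 and 4.61 after 16h and 3.99, 3.76, 4.04 and 3.46 after 24h. Psmf1 passed at none of the 3 times, with -0.01, 0.08 and -0.06 (SE 0.06 each).

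The 4 core chaperones were all lower with lactic acid at 8h and at 16h, and 2 of them at 24h. Of all genes 36.0%, 31.0% and 21.7% were lower at these times. With the length trend removed 2 of 4 were lower at 8h, where Psmg1 (-0.06) and Psmg2 (-0.11) did not pass. At 16h 3 were lower, without Psmg1 (-0.13). Of all genes 34.4% and 31.99% were lower at 8h and 16h with that trend removed. Psmg4 had the lowest value of all members at 8h (-0.77, SE 0.12), though not with the length trend removed (-0.28, against -0.56 for Psmg3). It went from 20.4, 17.2, 20.9 and 20.9 RPKM without to 9.81, 12.4, 12.4 and 10.4 with lactic acid. Psmg3 fell by 0.64 at 8h and 0.59 at 16h on the log2 scale, and Psmg2 by 0.48, 0.38 and 0.57 at 8h, 16h and 24h. With lactic acid Psmg1 was at 7.90, 8.52, 9.48 and 9.30 RPKM after 8h, 7.79, 8.94, 8.40 and 9.51 after 16h and 9.49, 8.45, 8.21 and 7.51 after 24h. Psmg1 was lower at 8h (-0.37, SE 0.10), 16h (-0.30) and 24h (-0.24), the last lost without any of 5 libraries in turn. With lactic acid Psmd10 was at 53.4, 54.3, 52.4 and 54.6 RPKM after 8h, 38.9, 40.2, 38.7 and 45.03 after 16h and 59.3, 46.5, 45.9 and 45.3 after 24h. Psmd10 was lower at 8h (-0.58, SE 0.08) and higher at 24h (0.23, SE 0.08). At 24h the groups overlapped, and LA 24h replicate 1 lay far above the others of its group.

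Gene length moved with the effect of lactic acid. Across the 46 members the difference at 8h ran with gene length at a Spearman rho of 0.48, and across all 9942 tested genes at 0.53. At 16h these were 0.34 and 0.37, and at 24h -0.05 and -0.16. These are correlations over genes that share the same libraries, given as a description. When the trend on length was removed from each library, 27 members were lower and 2 higher at 8h (median -0.17), beside 34.4% of all genes lower and 29.6% higher. At 16h 18 were lower and 5 higher (median -0.11), beside 31.99% and 29.3%, so that the share lower was near that of all genes. The core and the 19S particle then had medians of -0.18 and -0.17 at 8h, in place of -0.41 and -0.26. Of the named genes called at 8h, Psma6 went to -0.31, Psmb6 to -0.18, Psme2 to -0.28 and Psmd10 to -0.29, all still lower. At 16h Psma6 (-0.02), Psme1 (-0.12) and Psmd10 (-0.07) no longer passed. Long genes lead the right end (Psme4 has 8382 bases and Psmd3 4967) and Psmg4, the shortest at 554, the left; what sets the trend was not tested.

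**Figure D5:**
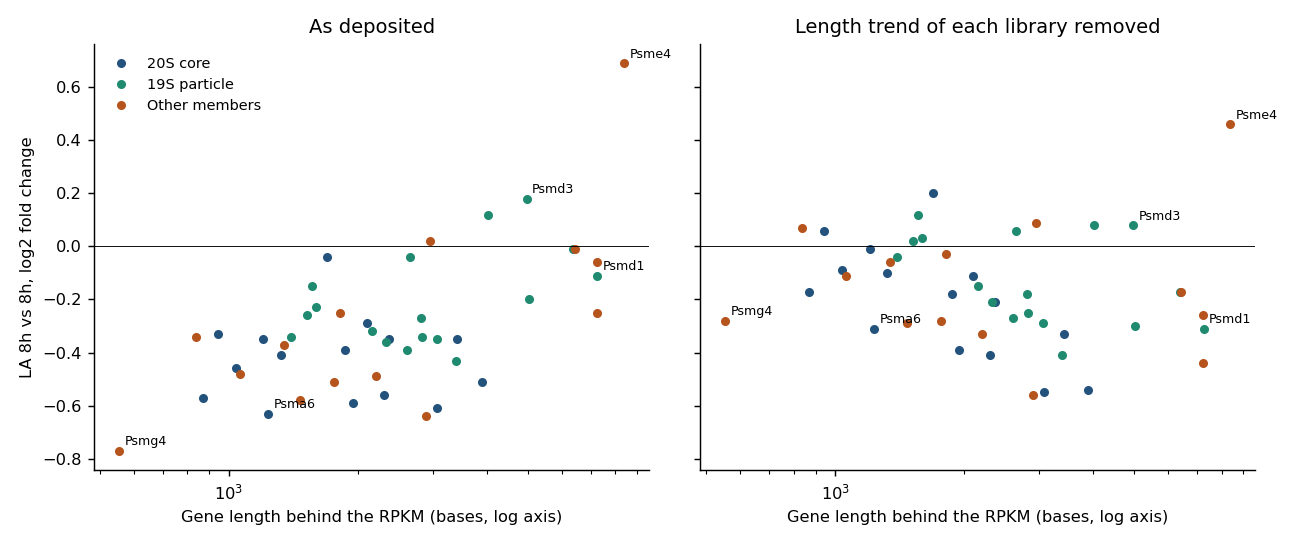
Log2 fold change of lactic acid against none at 8h for each of the 46 genes, against the gene length behind its RPKM (bases, log axis), as deposited and with the length trend of each library removed. As deposited the values rise with length (Spearman rho 0.48). Once the trend is removed rho is -0.29, and Psme4 stays highest.

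Other genes of the pathway, in a list of 29 tested genes outside the rule, moved in both directions. Without the 3 immunoproteasome genes, 18 of 26 rose and 3 fell at 4h (median 0.39), beside 42.5% and 42.7% of all genes. At 8h 19 rose and 6 fell (median 0.53), beside 40.7% and 42.1%. Pomp, the maturation factor of the core, rose by 0.76 at 4h and 0.95 at 16h, and Adrm1, a ubiquitin receptor of the cap, by 1.14 at 8h. Zfand5, a zinc finger protein that binds the proteasome, rose by 2.22 at 4h, while its relative Zfand2a fell by 1.68 on the log2 scale. Under listed-read scaling 8 of the 26 were higher and 11 lower at 4h, beside 23.5% and 63.7% of all genes.

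Of the genes that control proteasome transcription, Nfe2l1, which drives these genes when the proteasome falls short, did not pass at 4h (0.11) and rose by 0.45 at 8h, a rise that listed-read scaling removed (-0.02). Ddi2, the protease that frees it, fell by 1.25 at 4h and 0.51 at 8h on the log2 scale. With lactic acid at 8h Nfe2l1 rose by 0.78, Ddi2 by 0.39 and Nfe2l2, a related factor, by 0.31, and Ngly1, which removes sugars from Nfe2l1, fell by 0.39. At that time 6 of 8 shuttle and unfoldase genes rose with lactic acid and 1 fell, among them the ubiquilin Ubqln4 (0.69) and the unfoldase Vcp (0.23). Of 5 ubiquitin genes 3 fell and 1 rose, the activating enzyme Uba1 (0.15). Over the 26 genes 11 rose and 7 fell with lactic acid at 8h, with a median of 0.07, shares near the 32.1% and 36.0% of all genes.

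The histone marks were read at the starts of the 38 members with a promoter entry in RefSeq, without Psmg2, Psmd7, Psmb1, Psmb7, Psmc3, Psmd3, Psmb2 and Psma8. A deposited H3K18la peak lay within 1 kb of a start in 37 of 38 in M0 (97.4%, beside 92.8% of 7823 tested genes with an entry) and in 35 in M1 (92.1%, beside 76.7%). For H3K18ac it was 36 in M0 (94.7%, beside 94.8%) and 37 in M1 (97.4%, beside 92.6%). Of the members 34 had a peak in all 4 lists. Psmg1 and Psmg3 lacked one only for H3K18la in M1, Psmd10 only for H3K18ac in M0, and Psme2b lacked all 4. With 1 library per mark and state there is no test, and the members are among the 7823 genes they stand beside.

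The median authors' fold enrichment of the members' H3K18la peaks was 6.65 in M0 and 6.49 in M1, against 7.0 and 4.8 over all genes with a peak. For H3K18ac it was 5.26 and 5.61, against 5.26 and 4.92. At 4-fold enrichment or more, 30 of 38 members (78.9%) had an H3K18la peak in M1, beside 55.2% of genes. The lists differ in length, 21885 peaks for H3K18la in M0 and 16139 in M1, so that a rank or share in 1 list shows no change against another.

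Motifs were sought on both strands in windows of 300 bases, from 250 before to 50 after each start, in 41 entries of the 38 members and in 32851 entries of all genes. The ETS motif CGGAAG was in 56.1% of the members' windows, 33.0% of those of tested genes and 16.9% of all. The antioxidant response core TGACNNNGC was in 14.6%, 14.7% and 12.4%, in Psmb5, Psmb6, Psmc6, Psmd9, Psmd12 and Psme4. The core of the interferon-stimulated response element, a GAAA repeat with 2 bases between its copies, was in 12.2%, 3.47% and 3.44%, in Psmb3, Psmd4, Psmd9, Psme1 and Psmg4. The GAS motif TTCNNNGAA, which reads the same on both strands, was in 4.88%, 6.91% and 8.30%, and CCAAT in 31.7%, 37.9% and 37.4%. A match describes the letters only.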

How the data were processed

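RNA and ChIP-seq were measured in macrophages of C57BL/6 mice (38 samples). The members and gene lists were chosen with earlier results of these data known. RNA values were deposited by the authors as RPKM, beside their log2 fold changes and p-values, per the file headers. The size that each library was divided by and the length of each gene were recovered here from the RPKM. They are the values that make the reads whole numbers. HISAT2 2.1.0, featureCounts 1.5.0-p1, Bowtie2 2.2.6, SAMtools 0.1.19 and MACS2 2.2.1 are named in the submitters' processing notes, with the build mm10. The deposited spike-in table gives a count of reads per ChIP-seq library (20.5 to 36.6 M). The deposited peak lists give fold enrichment, a score and -log10 p and q per peak; whether samples were pooled is not given in the sources used here.

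The 9942 genes that reached 1 RPKM in 4 or more libraries (1242 did not) were tested with limma-trend (limma 3.58.1, R 4.3.3) on log2(RPKM + 1), in 1 fit of the 32 libraries by group (24 residual degrees of freedom) and Benjamini-Hochberg adjustment over all genes, at 0.05. Fold changes on this scale understate those of low genes. Every contrast was also fitted with a pseudocount of 0.1, no filter, libraries divided by their listed reads (listed-read scaling), the trend on gene length removed, the compared groups alone, the replicate number as a block, each replicate left out, and edgeR 4.0.16 on whole reads recovered from the RPKM (100.0% of values within 0.05 of a whole number, 11184 genes). The scripts were tested on simulated data. Named in every library were Psmb5, Psmb6, Psmb7, Psma3, Psmc2, Psmd1, Psmd14, Psme1 to Psme4, Psmf1, Psmd10 and Psmg1, and per contrast the 4 called members with the largest rise and the 4 with the largest fall. Others were named for their role, or after their values were seen (Psma2, Psmc1, Psmc4, Psmd5, Psmd11 and Psmd13). Promoter sequences and starts are RefSeq's for GRCm38.p6, the assembly that mm10 names.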

Additional observations from a re-analysis of the deposited data

Results flagged for a closer look

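Single libraries stood apart from their groups for 2 of the genes named in every library, among 112 groups of 4 checked, where chance gives about 1 in 20. Psmd14 was at 58.7 RPKM in LA 8h replicate 4 and at 60.3 to 60.5 in the others. Psmd10 was at 59.3 RPKM in LA 24h replicate 1 and at 45.3 to 46.5 in the others.

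The effect of lactic acid at 24h differed from that at 8h, by the test of the difference itself (limma, log2 scale), in these named genes. It was higher at 24h for Psma7 (1.05), Psme2 (0.99), Psma6 (0.92) and Psmb6 (0.81), and lower for Psme4 (-0.87), Psma8 (-0.25), Psmd3 (-0.24) and Psme3 (-0.21).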

How the results depend on the processing

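Listed-read scaling changed the most counts: members lower became 5, 7, 8 and 15 at the 4 times against 0h, members higher became 19 at 24h and 4 for 24h against 4h, and for lactic acid at 24h 5 were higher and 17 lower, with 25 members called for the difference between 24h and 8h. It also turned Psme4 at 4h and 8h (both -0.38), Psmf1 at 4h (-0.20), at 8h (-0.15) and with lactic acid at 8h (0.06), and Psmg1 at 8h (-0.02). With the length trend removed 8 members were lower at 24h and 18 with lactic acid at 16h, and Psmf1 at 24h was at 0.01. Fitting the compared groups alone left 0 members higher for 24h against 4h, and 4 higher and 3 lower for lactic acid at 24h. In edgeR 0 were lower at 4h and 3 at 16h; with a pseudocount of 0.1, and with the replicate block, 0 were lower at 4h, the call lost being Psma8. Why these values moved was not tested, beyond the shift of all genes under the scaling. The replicate numbers did not pair the libraries: over 112 pairs with the same number, deviations from the group means correlated at -0.643 to 0.536, with 41 pairs over 0.1, and the block changed 1 of 17 counts by more than 1.5 times.

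Leaving out each library in turn gave ranges of 43 to 44 higher and 0 to 1 lower at 4h, 40 and 2 to 3 at 8h, 38 and 3 to 5 at 16h, 31 to 33 and 4 to 6 at 24h, and 0 to 4 and 32 to 36 for 24h against 4h. With lactic acid they were 3 and 35 to 36 at 8h, 4 to 5 and 18 to 31 at 16h (18 without 16h replicate 2), 7 to 23 and 3 to 6 at 24h, and 35 to 38 called for the difference. Psmf1 with lactic acid at 8h, near 0 throughout, turned to 0.01 without 8h replicate 1 and 0.00 without 8h replicate 3 (-0.03 without 8h replicate 4). Depth was high for these genes, so the number of libraries limits the tests, and peaks rest on 1 library each.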

Other observations

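The neighbours of the members with the largest rises, chosen by position in RefSeq's GRCm38.p6 annotation, did not move alike. Nfkbia, which encodes the inhibitor of NF-kappaB, lies 70949 bases from Psma6 on chromosome 12 and went from 35.1 ± 1.33 RPKM at 0h to 883 ± 24.2 at 4h and 552 ± 31.8 at 8h (SD, n = 4), so that it was highest at 4h where Psma6 was highest at 8h. With lactic acid at 8h it was at 551 RPKM, a log2 fold change of -0.00 beside the -0.63 of Psma6. Ppp2r3c, on the other side of Psma6, changed by 0.47 at 4h.

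Psme1 and Psme2 lie 5912 bases apart on chromosome 14. Emc9, which lies between them, changed the other way, by -0.64 at 4h and -0.29 at 8h. Dcaf11, on the far side of Psme1, changed by -0.38 at 4h. Rnf31, a ubiquitin ligase gene that starts 611 bases from Psme2, went from 6.61 ± 0.484 RPKM at 0h to 29.1 ± 1.54 at 4h and 10.0 ± 0.868 at 8h, and with lactic acid at 8h it was at 14.6 ± 0.664, a change of 0.50 beside the -0.51 of Psme2. Irf9, next to Rnf31, changed by 0.70 at 4h and by -0.39 with lactic acid at 8h.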
